A study of Mus musculus with 20 samples.

Results

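Constant enhancers are stretches of chromatin away from gene starts that carried acetylated lysine 27 of histone H3 (H3K27ac) in the hematopoietic progenitors of every genotype of the study. They were chosen by the measured peaks themselves: the 4 H3K27ac peak lists were merged, and a region was kept if it lay on an autosome, held an H3K27ac peak and a peak of monomethylated lysine 4 (H3K4me1) in all 4 genotypes, held no peak of trimethylated lysine 4 (H3K4me3) in any, and lay more than 3000 bp from every annotated transcript start. Of 35252 merged H3K27ac regions, 566 were constant enhancers. Presence of the peaks in all lists is therefore a property of the choice and not a finding.

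Lin- cells are bone marrow cells depleted of cells with markers of mature blood lineages, here at a purity over 80% according to the labels. The 4 genotypes were Ep300fl/fl (WT), Mx1-Cre Ep300fl/fl (Ep300Δ/Δ), Ep300fl/fl Tet2-/- (Tet2-/-), and Mx1-Cre Ep300fl/fl Tet2-/- (Ep300Δ/ΔTet2-/-). All were C57BL/6 mice that had received poly(I:C) as young adults, the WT and Tet2-/- controls included, and all carried the floxed Ep300 alleles. The study used mice of both sexes, and the paper gives no sex for these libraries. Mx1-Cre is switched on by the interferon response to poly(I:C) and is not limited to one blood cell type, whereas Tet2 was absent from the germline onward. Each genotype and mark had 1 ChIP-Seq library from 25000000 cells, made with 5 μg of chromatin, to which 10 ng of Drosophila chromatin was added, and 1 μg of antibody. Whether the cells of a library came from several animals is not given in the sources used here. The methods name a usual interval after poly(I:C) for the experiments but none for these libraries. With 1 library per group there was no replicate error, no difference between genotypes was tested, and every value describes these libraries. The intervals given are exact 95% intervals that cover counting error only.

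Ep300 encodes p300, an acetyltransferase that places H3K27ac at enhancers and promoters, and its paralog CBP does the same. Tet2 encodes an enzyme that oxidizes methylated cytosine in DNA. H3K4me1 marks enhancers whether or not they are active, H3K4me3 marks mainly promoters, and H3K27ac is the usual sign of an active enhancer. In blood progenitors such enhancers are bound by lineage transcription factors of the ETS, RUNX, GATA and C/EBP families, among others.

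The sequences below are the mm10 reference from 100 bp before to 100 bp after the WT H3K27ac summit, the base where the peak was highest. Those of the 4 constant enhancers with the highest value of the lowest of their ranks in the 4 lists are shown first, each named by its nearest coding gene. Capitals mark matches, on either strand, to 7 short motifs of blood transcription factors: ETS (AGGAAGT), RUNX (TGTGGTT), the GATA factors (AGATAA), C/EBP (TTGCNNAA), AP-1 (TGANTCA), IRF (AANNGAAAC) and MYB (AACNGCC), where N is any base.
Hist1h2br: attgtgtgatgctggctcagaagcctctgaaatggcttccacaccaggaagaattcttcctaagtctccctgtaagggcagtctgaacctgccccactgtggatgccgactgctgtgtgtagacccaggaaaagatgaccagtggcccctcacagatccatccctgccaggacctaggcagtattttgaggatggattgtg
Sipa1l1: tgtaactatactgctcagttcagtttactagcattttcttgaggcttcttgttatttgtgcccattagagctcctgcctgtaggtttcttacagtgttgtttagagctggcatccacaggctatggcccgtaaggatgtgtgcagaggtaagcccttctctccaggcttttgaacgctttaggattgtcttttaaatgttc
Anks1: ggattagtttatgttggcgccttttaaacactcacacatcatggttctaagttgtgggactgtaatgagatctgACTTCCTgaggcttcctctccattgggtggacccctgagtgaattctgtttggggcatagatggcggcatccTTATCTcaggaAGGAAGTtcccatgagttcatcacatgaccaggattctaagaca
Trio: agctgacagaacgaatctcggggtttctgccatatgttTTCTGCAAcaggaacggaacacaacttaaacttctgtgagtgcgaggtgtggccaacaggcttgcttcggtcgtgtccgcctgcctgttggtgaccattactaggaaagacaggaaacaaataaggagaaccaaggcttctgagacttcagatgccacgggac
The window near Hist1h2br was intergenic at chr13:21852430-21852630, and those of Sipa1l1 at chr12:82245719-82245919, Anks1 at chr17:28015315-28015515 and Trio at chr15:27926179-27926379 were intronic. The Anks1 window held 2 ETS matches and 1 GATA match, the Trio window held 1 C/EBP match, and the other two held none of the 7 motifs.

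The strongest constant enhancers near or within genes of the stem, progenitor and myeloid transcription factor lists described later are shown in the same way, since these factors direct the fate of the cells studied.
Lmo2: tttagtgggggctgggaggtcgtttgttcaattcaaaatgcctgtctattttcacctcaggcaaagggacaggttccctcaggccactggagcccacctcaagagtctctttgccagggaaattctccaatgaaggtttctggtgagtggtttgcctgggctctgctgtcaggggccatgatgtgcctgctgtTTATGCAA
Runx1: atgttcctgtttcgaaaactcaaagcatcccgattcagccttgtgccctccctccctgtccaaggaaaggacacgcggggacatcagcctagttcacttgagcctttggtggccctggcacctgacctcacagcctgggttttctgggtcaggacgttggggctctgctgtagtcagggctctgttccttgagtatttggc
Ikzf1: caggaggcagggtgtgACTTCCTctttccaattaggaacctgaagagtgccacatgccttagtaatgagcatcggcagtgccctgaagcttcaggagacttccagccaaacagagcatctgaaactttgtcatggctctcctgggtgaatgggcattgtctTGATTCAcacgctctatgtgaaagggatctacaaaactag
Gfi1: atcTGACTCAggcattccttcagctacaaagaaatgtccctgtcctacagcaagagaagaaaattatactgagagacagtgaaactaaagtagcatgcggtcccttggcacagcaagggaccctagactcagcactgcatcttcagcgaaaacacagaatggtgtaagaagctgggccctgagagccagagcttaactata
Gfi1b: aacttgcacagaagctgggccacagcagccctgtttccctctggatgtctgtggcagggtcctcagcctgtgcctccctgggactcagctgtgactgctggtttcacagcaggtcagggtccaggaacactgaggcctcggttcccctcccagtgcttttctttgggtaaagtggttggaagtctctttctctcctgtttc
Irf8: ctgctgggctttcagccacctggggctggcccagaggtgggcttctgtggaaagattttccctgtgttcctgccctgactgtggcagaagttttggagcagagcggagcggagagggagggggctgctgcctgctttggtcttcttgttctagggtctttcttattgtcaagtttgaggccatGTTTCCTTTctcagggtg
Nfil3: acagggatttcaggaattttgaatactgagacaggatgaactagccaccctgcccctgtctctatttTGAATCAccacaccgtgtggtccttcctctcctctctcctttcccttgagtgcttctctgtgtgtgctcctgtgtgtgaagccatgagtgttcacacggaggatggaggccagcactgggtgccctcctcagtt
Id2: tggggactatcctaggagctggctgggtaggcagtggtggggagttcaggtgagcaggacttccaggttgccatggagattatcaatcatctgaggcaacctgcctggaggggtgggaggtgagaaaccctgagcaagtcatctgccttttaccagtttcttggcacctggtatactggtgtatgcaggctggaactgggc
The windows lay at chr2:103906804-103907004 for Lmo2, chr16:92620459-92620659 for Runx1, chr11:11763261-11763461 for Ikzf1, chr5:107749461-107749661 for Gfi1, chr2:28602052-28602252 for Gfi1b, chr8:120760561-120760761 for Irf8, chr13:53001007-53001207 for Nfil3 and chr12:25251634-25251834 for Id2. Those of Runx1 and Ikzf1 lay in introns of the named genes, that of Gfi1 in an intron of the neighboring gene Evi5, and that of Irf8 in an intron of the overlapping gene model Gm20388. The others were intergenic. The windows of Runx1, Gfi1b and Id2 held none of the 7 motifs, and the Irf8 window held an IRF match.

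The filters were applied one after another to the 35252 regions. An H3K27ac peak was present in all 4 lists in 12528 regions, of which 12194 were autosomal. Only 2015 of these, 16.5%, lay more than 3000 bp from every transcript start, so most sites acetylated in all genotypes were at or near starts. Of the distal sites, 1740 held H3K4me1 peaks in all genotypes. The H3K4me3 filter then left 566, 32.5%. Among the 1174 regions it removed, 782 had an H3K4me3 peak in all 4 genotypes and 136 in 1 only. The closest members inside the distance limit lay 3012 bp from a start of Ptpre, 3025 bp from one of Gm12972 and 3034 bp from one of Tmem50a. The closest regions outside it lay 2982 bp from Adora3, 2940 bp from Ing3 and 2913 bp from Gm20658.

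Distal regions that met every condition except the number of acetylated genotypes numbered 6288 and are called eligible regions. The constant enhancers were 9.0% of them (interval, 8.31 to 9.74). Regions with a peak only in WT were the most frequent combination, with 2323 regions, and regions with a peak only in WT and Tet2-/- numbered 729. Both serve as the comparison classes. The constant enhancers were 11.8% of the eligible regions acetylated in WT, 29.0% of those in Ep300Δ/Δ, 20.1% of those in Tet2-/- and 47.0% of those in Ep300Δ/ΔTet2-/-. The lists held 29659, 22727, 24539 and 18327 H3K27ac peaks in that order. The depth of the libraries is not given by peak lists, and its part in the number of peaks was not tested.

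**Figure D1:**
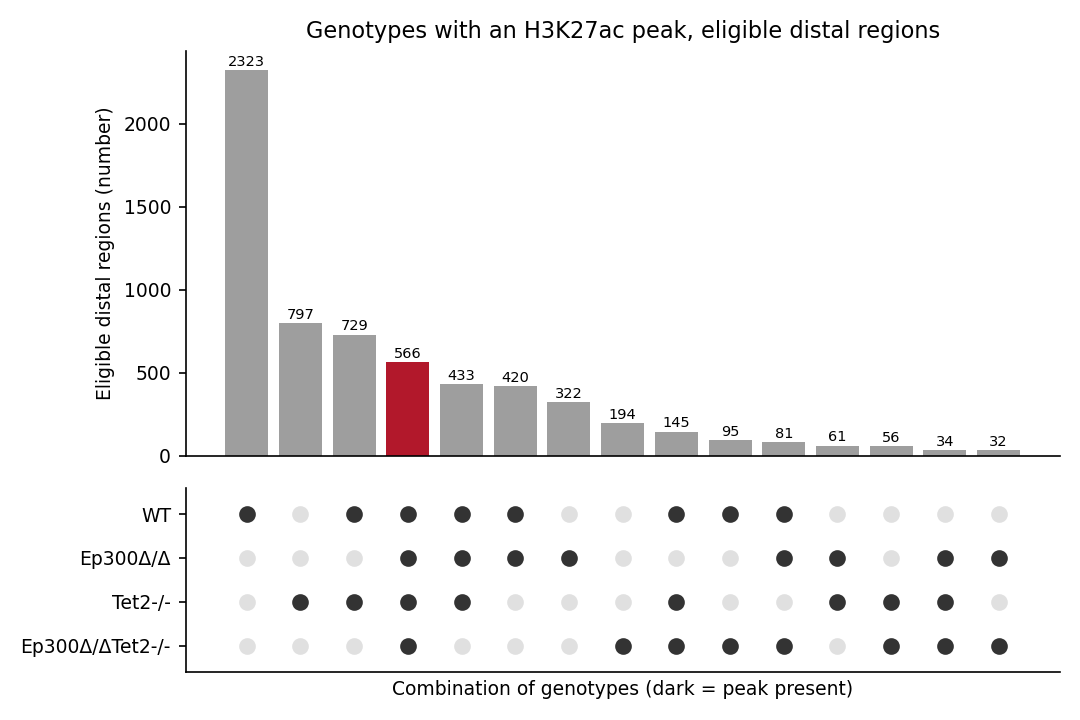
Number of eligible distal regions (vertical axis) with an H3K27ac peak in each combination of genotypes, shown by the dark dots below the bars. The red bar is the 566 constant enhancers, and the tallest bar is the 2323 regions with a peak in WT only.

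The Ep300Δ/ΔTet2-/- list set the limit most often. Of 999 eligible regions acetylated in WT, Ep300Δ/Δ and Tet2-/-, 566 also had a peak in Ep300Δ/ΔTet2-/-, 56.7% (53.5 to 59.8). Of 711 regions acetylated in the 3 genotypes other than Ep300Δ/Δ, 79.6% also had a peak there, and the corresponding shares were 87.5% of 647 for Tet2-/- and 94.3% of 600 for WT. A single library stands behind each of these shares, and the shortest list gave the smallest share.

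The strength of an H3K27ac peak was its fold enrichment over the histone H3 library of the same genotype, and it was compared between genotypes only as a percentile within its own list, where 100 is the strongest peak. The constant enhancers had a median percentile of 62.2 in WT, 43.1 in Ep300Δ/Δ, 50.7 in Tet2-/- and 35.3 in Ep300Δ/ΔTet2-/-. These medians were in the order of the lengths of the lists, and the part of list length in them was not tested. A percentile depends on the other peaks of its list, so the medians are not a measure of change between genotypes. Counted from the strongest peak, the median place of the members was 11202 in WT, 12926 in Ep300Δ/Δ, 12095 in Tet2-/- and 11850 in Ep300Δ/ΔTet2-/-, and the percentile among the 18327 strongest peaks of each list was 38.9, 29.5, 34.0 and 35.3 in that order. On this scale Ep300Δ/ΔTet2-/- was not the lowest. In the list of Ep300Δ/ΔTet2-/-, 202 members fell in the weakest quartile of peaks and 24 in the strongest, against 52 and 134 in WT. The lowest of a member's 4 percentiles was that in Ep300Δ/ΔTet2-/- for 235 members, in Ep300Δ/Δ for 177, in Tet2-/- for 98 and in WT for 56. By place from the strongest peak the last of the 4 was in Ep300Δ/ΔTet2-/- for 97 members, in Ep300Δ/Δ for 168, in Tet2-/- for 154 and in WT for 147. In all, 66 members had all 4 percentiles at or above 50. In bulk chromatin, acetylation in fewer cells and less acetylation per cell cannot be told apart.

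**Figure D2:**
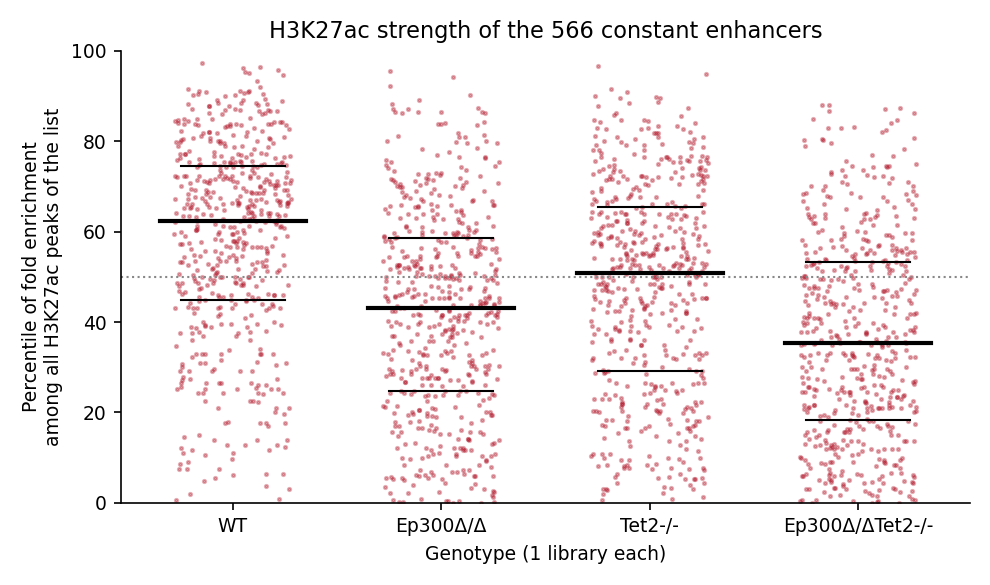
Percentile of H3K27ac fold enrichment within each genotype's own peak list (vertical axis) for each of the 566 constant enhancers (points), with the median (thick line) and quartiles (thin lines); the dotted line marks the middle of a list. The medians run from 62.2 in WT to 35.3 in Ep300Δ/ΔTet2-/-, in the order of the lengths of the lists, and by place from the strongest peak this order does not hold.

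Some members rested on weak calls. The q of the peak was over the 0.05 stated in the methods for 35 members in Ep300Δ/Δ, 8 in Ep300Δ/ΔTet2-/-, 1 in Tet2-/- and none in WT. In all, 43 members had such a peak in at least 1 list. In the weakest quartile of at least 1 list were 333 members, 58.8%. The order of strength among the members was only loosely shared: Spearman's rank correlation of the fold across the 566 members was 0.40 between WT and Ep300Δ/Δ, 0.41 between WT and Tet2-/-, and 0.23 between WT and Ep300Δ/ΔTet2-/-, given as a description of regions that share libraries. Since the choice asks for overlapping peaks in all lists, it limits how far apart their summits can lie. The summits of WT and Ep300Δ/Δ lay a median of 39 bp apart and within 150 bp in 448 members, 79.2%. Between WT and Ep300Δ/ΔTet2-/- the median was 51 bp, with 422 members within 150 bp and 38 more than 500 bp apart. Peaks of all lists shared a stretch of at least 100 bp in 531 members, and in 23 no base was common to all lists.

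The share of constant enhancers rose with the strength of the WT peak, a measure that the choice itself uses. Among eligible regions acetylated in WT, 31.6% of those in the strongest quartile by fold, from 6.76 upward, were constant, against 8.81% in the next, 4.35% in the one below it and 2.59% in the weakest. Thus 378 of the 566 members came from the strongest quartile of eligible WT regions, and 31 from the weakest.

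In all, 5 members were in the strongest quartile of all 4 lists. The strongest by its lowest percentile lay 18588 bp from the start of Hist1h2br, a histone H2B gene of the replication-dependent histone cluster. Its percentiles were 84.8 in WT, 89.2 in Ep300Δ/Δ, 89.6 in Tet2-/- and 84.6 in Ep300Δ/ΔTet2-/-, with fold enrichments of 15.77, 15.73, 18.39 and 15.34 in the same order. Its peaks were narrow, at 303 to 330 bp, whereas the median WT peak of the members covered 756 bp. These are places 4504, 2460, 2556 and 2829 from the strongest peak. The second, in Sipa1l1, which encodes a regulator of Rap GTPase signaling, had percentiles of 97.3 in WT, 87.1 in Ep300Δ/Δ, 94.8 in Tet2-/- and 83.1 in Ep300Δ/ΔTet2-/-. The region in Anks1 had 87.0, 86.5, 80.4 and 80.5 in the same order. That in Trio, a guanine nucleotide exchange factor, had 78.9, 78.5, 79.2 and 80.6. The region 5797 bp from Rflnb had 77.2, 86.3, 75.9 and 78.9. In each of these regions the 4 ranks lay within 14.2 percentile points of each other.

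Of the next 7 members by strength, the one 5456 bp upstream of Ifnar2, a subunit of the receptor for type I interferon, had the highest ranks in WT and Ep300Δ/Δ, with percentiles of 96.5 in WT, 95.5 in Ep300Δ/Δ, 71.9 in Tet2-/- and 87.9 in Ep300Δ/ΔTet2-/-. A region of 3831 bp in Fam107b had 90.2, 94.1, 89.5 and 72.1 in that order. The region 36254 bp from Atf7ip, which encodes a partner of a histone methyltransferase, had 90.2, 70.3, 83.4 and 86.3. The region near Mtdh had 83.2, 72.3, 76.4 and 79.5, and the one in Abr had 83.9, 81.0, 72.1 and 77.0. An exonic region in Padi2, a peptidylarginine deiminase, had 84.5, 80.0, 71.1 and 73.2. The region near Pxt1 had 79.5, 83.8, 72.3 and 70.5. These 12 regions had a percentile of at least 70.3 in every list.

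The 5 members with the widest spread of percentiles showed the opposite, and in all 5 the Ep300Δ/ΔTet2-/- list held the lowest value. A region 103695 bp from the start of Thbs1, which encodes thrombospondin, lay outside that gene, in an intron of a gene model that is not protein-coding. It had percentiles of 89.0 in WT, 83.5 in Ep300Δ/Δ, 88.6 in Tet2-/- and 5.15 in Ep300Δ/ΔTet2-/-. The region 75285 bp from Irf2, an interferon regulatory factor, had 84.6, 71.2, 64.4 and 0.851. The region in Gsr, glutathione reductase, had 90.6, 72.9, 62.4 and 7.78. A region 18078 bp from Notch2, a receptor of blood progenitors, had 91.5, 66.8, 78.1 and 9.14, and one 168454 bp from Rnls had 83.7, 66.9, 62.4 and 2.50. Their places from the strongest peak were also last in Ep300Δ/ΔTet2-/-, at 16651 to 18171 of 18327. At these places a constant enhancer by peak presence was among the weakest calls of the Ep300Δ/ΔTet2-/- list. The 5 were picked by percentile, and by place other members were spread more widely, with WT last. The member nearest to Pparg was at place 29382 in WT, 21166 in Ep300Δ/Δ, 7602 in Tet2-/- and 6321 in Ep300Δ/ΔTet2-/-.

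The choice asks for an H3K4me1 peak that overlaps the acetylated region in every genotype. It thus fixes much of the position of H3K4me1, though not its strength, and the following shares are a description. The summit of a genotype's own H3K27ac peak lay inside an H3K4me1 peak of that genotype in 98.4% of members in WT (97.0 to 99.3), 97.9% in Ep300Δ/Δ, 98.1% in Tet2-/- and 98.2% in Ep300Δ/ΔTet2-/-. It did so in all 4 genotypes in 538 members. With 1 summit per region, that of WT where it had a peak, read against the H3K4me1 list of each genotype, the share was 98.4% of members and 98.6% of all eligible regions in WT, 97.9% and 97.5% in Ep300Δ/Δ, 98.1% and 99.1% in Tet2-/-, and 98.6% and 98.1% in Ep300Δ/ΔTet2-/-. The H3K4me1 peaks at members were wide, with a median of 1106 bp in WT against 426 bp in the whole list, and 1283 bp against 442 bp in Ep300Δ/ΔTet2-/-. At 500 bp before the WT H3K27ac summit 69.1% of members were still inside a WT H3K4me1 peak, at 1000 bp 56.5% and at 2000 bp 33.6%. The WT profile of the WT-only regions was close to this, at 61.6%, 54.1% and 36.2%.

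The H3K4me1 peak at the WT H3K27ac summit was among the strongest of its list in every genotype. For the constant enhancers its median percentile was 90.0 in WT, 89.2 in Ep300Δ/Δ, 88.8 in Tet2-/- and 92.5 in Ep300Δ/ΔTet2-/-. In regions acetylated only in WT the medians were 88.5 in WT, 75.4 in Ep300Δ/Δ, 83.2 in Tet2-/- and 78.0 in Ep300Δ/ΔTet2-/-. In regions acetylated only in WT and Tet2-/- they were 86.0, 76.4, 88.8 and 80.8 in the same order. These lists also differ in length, with 107392 peaks in WT, 90738 in Ep300Δ/Δ, 98069 in Tet2-/- and 93465 in Ep300Δ/ΔTet2-/-. Counted from the strongest H3K4me1 peak, the median places were 10782, 9804, 10978 and 7036 for constant enhancers and 12309, 22362, 16496 and 20568 for WT-only regions, in the same order. Region by region, with a missing peak counted as 0, the H3K4me1 percentile was lower in Ep300Δ/Δ than in WT in 52.3% of constant enhancers (48.1 to 56.5) and in 68.2% of WT-only regions (66.3 to 70.1). For Tet2-/- the shares were 53.0% (48.8 to 57.2) and 60.7% (58.7 to 62.7), and for Ep300Δ/ΔTet2-/- 46.3% (42.1 to 50.5) and 64.5% (62.5 to 66.5). The median difference from WT in Ep300Δ/Δ was −0.4 percentile points in constant enhancers and −9.6 in WT-only regions. The WT-only regions were chosen by an H3K27ac peak in WT alone, and H3K4me1 was read at that WT summit. Both marks were called against the same H3 library of a genotype. The choice may therefore favor lower H3K4me1 ranks outside WT in WT-only regions, and how far it does was not tested. Among the eligible regions in the strongest quartile of WT H3K27ac fold, the difference was smaller: 56.9% of constant enhancers (51.7 to 61.9) and 65.0% of the other regions (61.6 to 68.3) had a lower H3K4me1 percentile in Ep300Δ/Δ, and these intervals overlapped. For Tet2-/- they were 54.0% (48.8 to 59.1) and 57.8% (54.3 to 61.2), which also overlapped, and for Ep300Δ/ΔTet2-/- 49.7% (44.6 to 54.9) and 61.3% (57.9 to 64.7). By place in place of percentile the shares in this quartile were 52.4% (47.2 to 57.5) and 62.5% (59.1 to 65.9) for Ep300Δ/Δ, where the intervals did not overlap, 50.8% and 55.8% for Tet2-/-, and 46.6% and 58.8% for Ep300Δ/ΔTet2-/-.

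**Figure D3:**
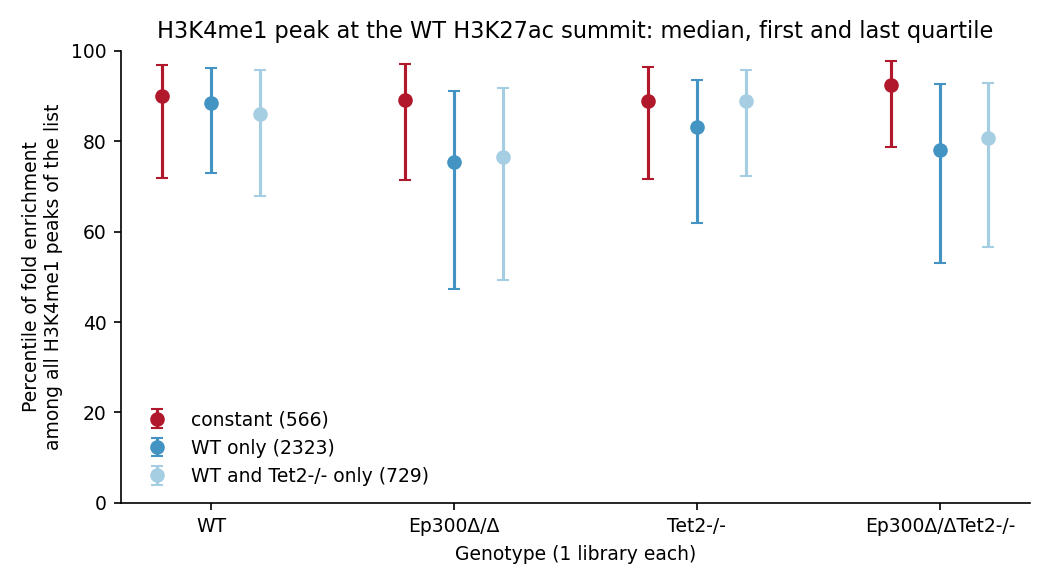
Percentile of fold enrichment within the H3K4me1 list (vertical axis) of the peak at the WT H3K27ac summit, by genotype, as median with first and last quartile, for constant enhancers (red) and the regions acetylated only in WT or only in WT and Tet2-/- (blues). Medians of the constant enhancers lie between 88.8 and 92.5, and those of WT-only regions between 75.4 in Ep300Δ/Δ and 88.5 in WT, in lists of 90738 to 107392 peaks.

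Constant enhancers did not differ much from the other eligible regions in where they lay. By the position of the WT summit, 350 members were intronic, 61.8% (57.7 to 65.9), 198 were intergenic and 18 were exonic. The intronic share was 64.1% of WT-only regions and 64.9% of all eligible regions, both inside that interval, and 66.7% of regions of WT and Tet2-/- (63.1 to 70.1), just above it. The intergenic share was 35% of members (31.1 to 39.1), 29.1% of regions of WT and Tet2-/- and 31.0% of all eligible regions. The median distance to the nearest coding start was 14624 bp, against 14793 bp for WT-only regions and 14992 bp for all eligible regions. Of the members, 34.8% lay under 10000 bp from a coding start and 17.7% over 50000 bp. Their number per autosome ran from 15 to 46. The merged regions had a median width of 877 bp, with the narrowest at 291 bp and the widest at 4060 bp. WT-only regions had a median of 350 bp, but a region merged from 4 lists is wider by construction.

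Another eligible region of any kind lay within 12.5 kb of 66.8% of constant enhancers (62.7 to 70.7), against 62.5% of WT-only regions (60.5 to 64.5), 62% of regions of WT and Tet2-/- and 61.1% of all eligible regions (59.9 to 62.3). At least 1 eligible region that was not constant lay within this distance of 361 members, 63.8% (59.7 to 67.7), and a WT-only region did so for 215, 38.0%. Within the same distance of another constant enhancer lay 111 members, 19.6% (16.4 to 23.1), in 51 clusters, of which 7 held 3 or more members. The share in clusters depended on the processing, and was 10.1% with peaks within 500 bp merged and 12.1% with peaks of −log10 q of at least 5. The largest cluster had 5 members over 10.6 kb in introns of Ubac2, at chr14:121928768-121939327. The other 6 held 3 members each, near Tagap, Ahnak, Ankdd1a and Plekho2, Zfp36l2, Inpp5d and Lmo2, and spanned 3.92 kb near Tagap, a GTPase-activating protein of lymphocytes, to 18.1 kb near Ankdd1a and Plekho2.

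Each member was given to the coding gene with the nearest start. The 566 members had 461 nearest coding genes, of which 386 had 1 member, 54 had 2 and 21 had 3 or more. Inpp5d, which encodes the phosphatase SHIP1 that restrains cytokine signaling in blood cells, had 5 members, all in its introns. Zfp36l2, an RNA-binding protein that promotes decay of messenger RNA, had 5, none inside that gene, and Ubac2 had 5. Etv6, an ETS family repressor needed by blood stem cells, had 4, as did Vps13d and Tomm20. A further 15 genes had 3 each: Ahnak, Asprv1, Chn2, Fam49a, Fndc3b, Gas7, Ifngr1, Lmo2, Map3k5, Msrb3, Pmaip1, Slc43a2, Tagap, Thada and Vmp1. Of the 461 genes, 241 (52.3%) were also nearest to a WT-only region. Etv6 was the clearest case, with 4 constant enhancers among 45 eligible regions, 19 of which were acetylated only in WT. By contrast, 5 of the 10 eligible regions nearest to Ubac2 and 5 of the 14 nearest to Inpp5d were constant.

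Of 20780 autosomal coding genes, 500 were nearest to or contained a constant enhancer, a background of 2.41%. Among the 2841 genes nearest to or containing any eligible region the share was 17.6%. Stem and progenitor transcription factors stood above both values, with 9 of 26 genes, 34.6% (17.2 to 55.7), and 9 of the 20 with an eligible region, 45.0% (23.1 to 68.5). These shares count genes, and a gene with more eligible regions has more chances to hold a constant one. The 9 genes had from 0 (Gfi1) to 41 (Etv6) other eligible regions nearest to them, and the part of this number was not tested. Cytokine and growth factor receptors had 7 of 30, 23.3% (9.93 to 42.3), and cytokine signaling and feedback genes 6 of 25, 24.0% (9.36 to 45.1), both above the share over all genes. Of those with an eligible region, 33.3% of the receptor genes (14.6 to 57.0) and 35.3% of the signaling genes (14.2 to 61.7) had a constant enhancer, and both intervals include 17.6%. Myeloid transcription factors had 3 of 21 and erythroid and megakaryocytic regulators 2 of 14. Granule and phagocyte genes had 1 of 25, and erythroid and platelet genes 1 of 24. Lymphoid genes had 0 of 23, with an interval of up to 14.8%, and genes of other tissues 0 of 26, with an interval of up to 13.2%. The enzymes of acetylation and DNA methylation had 2 of 26. These counts are read beside the background only, since the lists were assembled with earlier results of these data known.

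**Figure D4:**
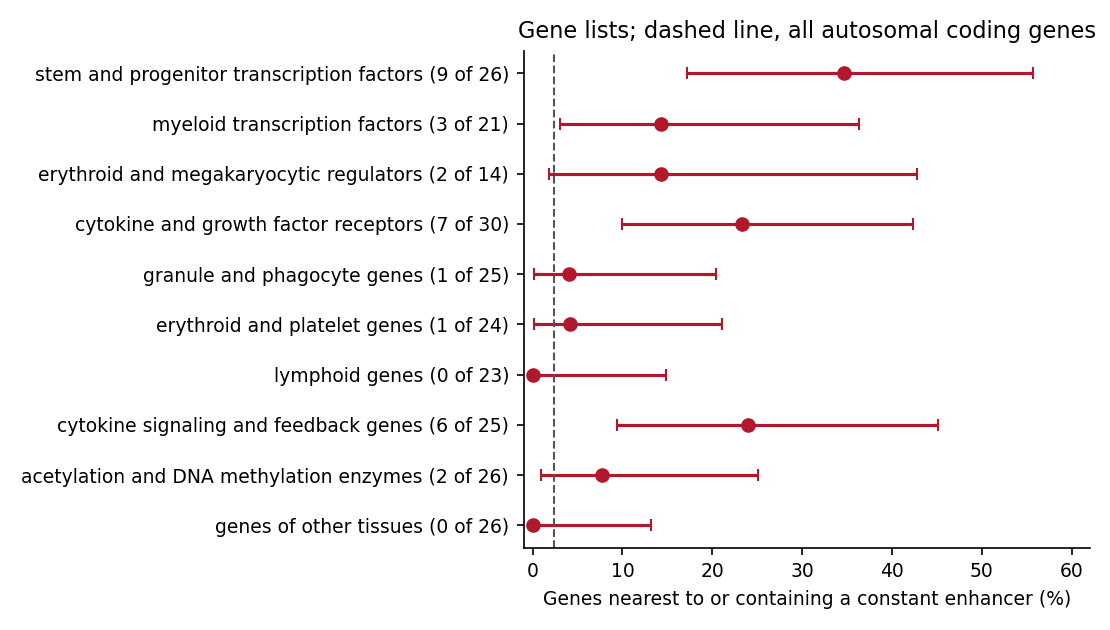
Share of the autosomal coding genes of each list that were nearest to or contained a constant enhancer (horizontal axis, percent), with exact 95% intervals; the dashed line is the 2.41% over all autosomal coding genes. Stem and progenitor transcription factors have the highest share, 34.6%, and lymphoid genes and genes of other tissues have none.

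Among the stem and progenitor transcription factors, Lmo2, a bridging protein of the GATA and TAL1 complex, had 3 members in a cluster of 12.5 kb, the closest 50702 bp upstream of its start. The strongest had percentiles of 92.0 in WT, 69.8 in Ep300Δ/Δ, 84.7 in Tet2-/- and 87.4 in Ep300Δ/ΔTet2-/-, all in the stronger part of the lists. Etv6 had 4 members, the strongest at 68.5, 66.8, 50 and 23.3 in the same order. Ikzf1, the Ikaros zinc finger protein, had 3, the strongest at 48.6, 44.4, 61.9 and 63.8, or places 15251, 12626, 9340 and 6642 from the strongest peak. Runx1, a master regulator of definitive blood stem cells, had 2, the stronger at 51.1, 51.9, 73.1 and 44.6, in an intron 73120 bp from the nearest coding start. Gfi1 and Gfi1b, related zinc finger repressors, had 1 each. The Gfi1 region had percentiles of 87.1 in WT, 47.2 in Ep300Δ/Δ, 76.5 in Tet2-/- and 36.7 in Ep300Δ/ΔTet2-/- and was the only eligible region nearest to that gene. The Gfi1b region had 71.7, 71.9, 58.6 and 35.4.

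The remaining 3 genes of this list, named after their values were seen, had weaker members. Myb, a transcription factor of proliferating progenitors, had 1 at chr10:21196653-21197080, 35669 bp from its start, with percentiles of 17.6 in WT, 11.6 in Ep300Δ/Δ, 63.3 in Tet2-/- and 65.0 in Ep300Δ/ΔTet2-/-. From the strongest peak these are places 24453, 20090, 9008 and 6418. Spi1, which encodes PU.1, had 1 intronic member of 3480 bp at 75.3, 41.2, 1.92 and 4.84, or places 7318, 13352, 24067 and 17440. Fli1, an ETS family factor, had 1 at 15, 13, 20.4 and 8.67. Of the myeloid factors, Irf8, needed for monocytes and dendritic cells, had 1 member at 53.5, 59.8, 46.2 and 30.5. Id2 had 1 at 78.9, 61.1, 53.0 and 25.6, and Nfil3 had 1 at 29.2, 30.3, 57.0 and 33.2. Nfix, on the erythroid and megakaryocytic list, had 1 at 48.2, 46.1, 48.4 and 25.2.

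The receptors with a constant enhancer included both chains of the type I interferon receptor and a chain of the interferon gamma receptor, Ifngr1. Ifngr2, on the same list, had none. All mice had been given poly(I:C), and without an untreated group its part could not be tested. Ifnar1 had 2 members, the stronger at percentiles of 67.2 in WT, 47.2 in Ep300Δ/Δ, 42.0 in Tet2-/- and 35.2 in Ep300Δ/ΔTet2-/-. Ifngr1 had 3, the strongest at 93.3, 63.1, 84.6 and 45.5. Flt3, a receptor tyrosine kinase of multipotent progenitors, had 2, the stronger in an intron at 83.6, 74.4, 69.5 and 75.7. Tnfrsf1b, a receptor for tumor necrosis factor, had 2, the stronger at 57.5, 51.8, 74.0 and 64.2. Ccr1, a chemokine receptor, had 2, the stronger at 78.8, 70.8, 21.6 and 45.2. Notch2 had 2, the stronger at 67.0, 35.8, 64.0 and 36.7, which are places 9775, 14600, 8824 and 11604 from the strongest peak.

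Among the signaling and feedback genes, the kinase gene Pim1 had 1 member with even percentiles of 57.5 in WT, 65.9 in Ep300Δ/Δ, 53.0 in Tet2-/- and 47.1 in Ep300Δ/ΔTet2-/-. Mcl1, which encodes a survival protein, had 1 at 77.8, 43.0, 83.0 and 53.7. The strongest of 5 members of Inpp5d had 66.1, 52.7, 54.7 and 38.9. Dusp1, a phosphatase of MAP kinases, had 1 at 63.1, 32.9, 44.7 and 44.1. Lyn, a SRC family kinase, had 1 at 20.2, 27.6, 7.23 and 3.05, and Tyk2, a JAK family kinase, had 1 exonic member at 10.5, 41.5, 10.9 and 12.3. Ctsg, which encodes the granule protease cathepsin G, had 1 at 80.2, 32.9, 66.8 and 4.57, and Car2, a carbonic anhydrase of red cells, had 1 at 26.6, 63.1, 50.5 and 32.0. A region 78038 bp upstream of Tet2 was constant too, with 86.2, 57.2, 62.4 and 71.0, and one in the body of Tet3 had 66.1, 22.6, 59.0 and 24.6. Neither Ep300 nor Crebbp had a constant enhancer.

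The genes nearest to constant enhancers mostly had marked promoters. Within 1000 bp of a start, 311 of 461 genes, 67.5% (63.0 to 71.7), had an H3K27ac peak in all 4 genotypes, and 89.2% had an H3K4me3 peak in all 4. Of all autosomal coding genes, 39.4% and 59.9% did. Genes nearest to WT-only regions had 62.5% (60.0 to 65.0) and 88.0%, and those nearest to regions of WT and Tet2-/- had 63.2% and 89.2%, so the intervals of the 3 groups overlapped. No H3K27ac peak in any genotype was found at the promoters of 81 of the 461 genes.

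In base composition the constant enhancers were close to the other eligible regions. The median GC content within 100 bp of the summit was 51.2% against 51.2% over all eligible regions. No repeat-masked base lay in this window in 48.1% of members (43.9 to 52.3) and in 44.6% of all eligible regions. Beside the 7 motifs marked in the sequences, 5 more were searched on both strands: PU.1 (GAGGAAGT, which contains the ETS motif), NF-kB (GGANTTTCC), an E-box (CAGCTG), KLF (CCACNCCC) and CTCF (CNAGGNGGC). Within 100 bp of the summit none of the 12 separated the constant enhancers from the rest. The ETS motif was in 6.18% of members (4.34 to 8.50; 8.66% around the Ep300Δ/ΔTet2-/- summit) and 6.92% of all eligible regions, RUNX in 4.06% and 5.03%, GATA in 6.01% and 6.79%, C/EBP in 6.18% and 6.49%, and the E-box in 17.1% (14.1 to 20.5) and 14.8%. None of the 7 marked motifs was found in 65.2% of members and 63.4% of all eligible regions.

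The ETS, GATA and IRF motifs were less frequent at the summit than beside it, in constant enhancers and in the other eligible regions alike. Matches were counted per kb of sequence in steps of 100 bp from the WT summit (the summit of another list where WT had no peak), a measure chosen after the shares within 100 and 250 bp had been seen. At constant enhancers ETS matches rose from 0.327 per kb within 100 bp of the summit (exact Poisson interval, 0.230 to 0.451) to 1.02 per kb at 100 to 200 bp (0.839 to 1.22), and were back at 0.459 at 400 to 500 bp. GATA matches rose from 0.309 to 0.777 and IRF matches from 0.124 to 0.406 per kb between the same steps. E-box matches were most frequent within 100 bp, at 0.972 per kb, and KLF matches were level at 0.433 and 0.451. The mean GC content was 51.6% within 100 bp and 47.5% at 100 to 200 bp, and its part in these profiles was not tested.

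At 100 to 200 bp from the summit the ETS motif was more frequent at constant enhancers than at other eligible regions. This step was singled out after the profile was seen, and it is where the gap was widest. At 200 to 300 bp the densities were 0.813 per kb (0.655 to 0.997) and 0.721 (0.673 to 0.772), with overlapping intervals, and at 300 to 400 bp 0.857 (0.695 to 1.05) and 0.586 (0.543 to 0.632). A match lay 100 to 200 bp from the summit in 99 of 566 members, 17.5% (14.4 to 20.9), and in 12% of the 5722 eligible regions that were not constant (11.1 to 12.8). The share was 10.2% of WT-only regions (8.96 to 11.5) and 11.2% of regions of WT and Tet2-/- (9.05 to 13.8). Among regions in the strongest quartile of WT fold it was 20.4% of 378 constant enhancers (16.4 to 24.8) and 11.3% of 817 others (9.17 to 13.6), so the intervals did not overlap within that quartile either. For GATA the shares were 13.1% of members and 12.4% of the others, for RUNX 6.36% and 6.94%, and for IRF 7.77% (5.71 to 10.3) and 5.51% (4.93 to 6.13). Within 250 bp of the summit, ETS was in 28.3% of members (24.6 to 32.2) and 23.6% of the others (22.5 to 24.8), and these intervals overlapped. A match describes letters in the sequence and not the binding of a factor, and the difference was not tested.

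**Figure D5:**
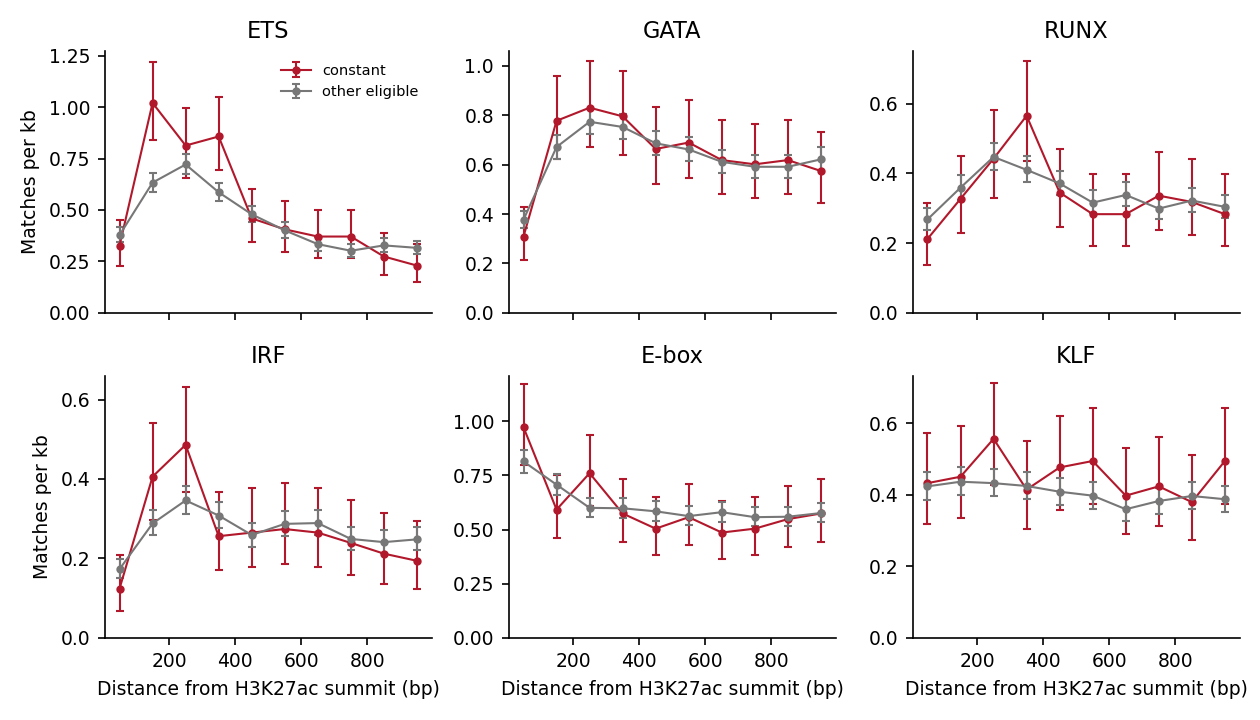
Matches per kb (vertical axes) to 6 motifs by distance from the H3K27ac summit in steps of 100 bp, for constant enhancers (red) and the other eligible regions (gray), with exact Poisson intervals. ETS matches at constant enhancers reach 1.02 per kb at 100 to 200 bp, against 0.327 within 100 bp and 0.633 in the other regions.

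The 3 strongest members with an ETS match in this flanking step are shown centered on that match.
Anks1: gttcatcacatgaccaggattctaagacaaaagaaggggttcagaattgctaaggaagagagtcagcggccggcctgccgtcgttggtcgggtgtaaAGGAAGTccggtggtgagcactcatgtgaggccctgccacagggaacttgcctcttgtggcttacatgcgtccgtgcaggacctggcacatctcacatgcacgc
Ifnar2: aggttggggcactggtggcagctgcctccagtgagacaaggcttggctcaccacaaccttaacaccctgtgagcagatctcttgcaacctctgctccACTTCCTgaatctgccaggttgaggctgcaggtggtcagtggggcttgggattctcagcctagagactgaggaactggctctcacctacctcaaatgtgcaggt
Pxt1: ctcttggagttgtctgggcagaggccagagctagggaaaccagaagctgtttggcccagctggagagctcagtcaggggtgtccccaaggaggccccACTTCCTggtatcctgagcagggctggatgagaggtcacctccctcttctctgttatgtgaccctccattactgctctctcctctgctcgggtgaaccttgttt
The match lay 172 bp from the summit in Anks1, at chr17:28015487-28015687, 154 bp in the region upstream of Ifnar2, at chr16:91366765-91366965, and 176 bp in the region near Pxt1, at chr17:28930875-28931075.

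The promoters of marker genes were read in the same libraries as a check of the cell type. An H3K27ac peak lay within 1000 bp of a start for 7 of 8 progenitor genes in WT, Tet2-/- and Ep300Δ/ΔTet2-/- and for 8 in Ep300Δ/Δ. Cd34 lacked one in WT and Tet2-/-, and Gata2 lacked one in Ep300Δ/ΔTet2-/-. Of 3 B cell genes, 3 T cell genes, 2 neuronal and 2 liver genes none had a peak in any genotype. The red cell gene Slc4a1 had one in all genotypes but Tet2-/-, the red cell gene Hbb-bt in none, and the endothelial gene Cdh5 in Tet2-/- only. The part of red cell precursors and other cell types in the constant enhancers was not tested.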

How the data were processed

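The 12 deposited peak lists of H3K27ac, H3K4me1 and H3K4me3 (mm10) were used. The 8 samples of H3 and H3K27me3 were not analysed here. Per the labels and the methods, the authors trimmed reads with cutadapt 1.15, aligned them with BWA 0.7.13, removed duplicates with Picard and called peaks with MACS2 2.1.1.20160309 against the H3 library at q under 0.05, keeping peaks seen in pseudo-replicates. Each peak in the deposited lists has a fold enrichment over H3 and a −log10 q-value, which were used as given. The deposited −log10 p-value and the score of the authors' peak caller were not used. The deposited H3K27ac lists hold 143 to 1630 peaks with a q over 0.05. No scaling by the spike-in is described. The labels call the reads single-end and the methods paired-end. Read depth is unknown from peak lists.

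Peaks sharing at least 1 bp were merged, and distances were taken to the starts of GENCODE vM21 (GRCm38). Motifs were searched in the RefSeq GRCm38.p6 sequence. For sequences to print, windows over exons or on chromosome 18 were passed over. No test between genotypes was made, with 1 library each. Shares carry exact Clopper-Pearson intervals. One further marker gene is not reported here. The members, classes and gene lists were chosen with earlier results of these data known. Named are the 12 members with the highest value of the lowest percentile, the genes with the most members, up to 6 genes per list with their strongest member (Myb, Spi1 and Fli1 were added after their values were seen), the largest clusters (the rule took 3, but 6 tied after the first), the members next to the distance limit and the 5 with the widest range of percentiles. Alternatives changed the overlap, q, list length, merging, distance, H3K4 filters, genotypes required and motif windows. The code recovered the known answer in 900 of 900 simulated overlaps, 1237 merged regions, 327 nearest starts and 2400 planted motifs. The work used bedtools 2.31.1 and Python 3.11.15 with scipy 1.17.1, pysam 0.24.0 and pandas 2.3.3.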

Additional observations from a re-analysis of the deposited data

How the results depend on the processing

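The number of constant enhancers followed the strictness of the H3K27ac lists and the H3K4me3 filter. It was 256 with peaks of −log10 q of at least 5, where they were 6.77% of eligible regions, had 223 nearest genes and 12.1% lay in clusters. It was 364 with lists of equal length (11.7% of eligible regions, 300 nearest genes), and 1740 without the H3K4me3 filter (18.2%, 1214 nearest genes, 55.3% intronic, 30% in clusters). Without that filter the H3K27ac summit lay in an H3K4me1 peak in 92.5% of regions in WT, 93.4% in Ep300Δ/Δ, 93.2% in Tet2-/- and 94.5% in Ep300Δ/ΔTet2-/-. Without the H3K4me1 filter these shares were 95%, 92.9%, 94.0% and 95.6%, and 6.33% of eligible regions were constant. They were 100% by construction where every summit had to lie in one. Merging within 500 bp gave 11.1% constant, 10.1% in clusters and 96.4% for the Tet2-/- summits. Over 5000 bp from every start the median distance to a coding start was 18106 bp, and with a cluster distance of 5000 bp 15% were in clusters.

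Leaving out each H3K27ac library in turn, with 3 genotypes required, gave 600 to 999 regions, 9.54% to 15.9% of eligible regions (11.3% without Ep300Δ/Δ and 10.3% without Tet2-/-), 489 to 737 nearest genes and 19.5% to 27.1% in clusters. The highest values came without Ep300Δ/ΔTet2-/-. Among equally many peaks, an alternative added after the values were seen, the median H3K27ac percentile of the members was 38.9 in WT, 29.5 in Ep300Δ/Δ and 34.0 in Tet2-/-, and the order of the genotypes changed. By place from the strongest H3K4me1 peak, added likewise, the share of WT-only regions with weaker H3K4me1 than in WT was 64.4% in Ep300Δ/Δ, 58.2% in Tet2-/- and 61.6% in Ep300Δ/ΔTet2-/-. Of 159 values recomputed, 117 stayed within their interval or within 1.5 times the count. Of 37 further motif and promoter H3K4me3 values, 24 did and 13 moved. These were the 12 motif shares within 250 bp, which are higher in a longer window, and the ETS share around the Ep300Δ/ΔTet2-/- summit, 8.66%. All 566 members were kept with a distance of 1000 bp, with coding starts only, without either H3K4 filter and with any 3 genotypes, 256 with the stricter q and 364 with equal lists. No paired analysis was possible because each genotype and mark has 1 library and no test was made. Except where the construction of an alternative gives it, the cause of these changes was not tested. Without replicates and depth, absence of a peak shows only that none was called.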
